A study of Caenorhabditis elegans with 2 samples.

Results

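The loci described here are the 612 nuclear transfer RNA (tRNA) genes that Ensembl release 115 annotates in Caenorhabditis elegans, each taken with 200 bp on either side. Membership was set by the annotation and used no signal value, and the 22 mitochondrial tRNA genes were left out. The genes were 64 to 122 bp long with a median of 72 bp. The measurement was chromatin immunoprecipitation followed by sequencing (ChIP-seq) of UNC-39 in whole embryos of mixed stage and mixed sex. There was 1 group of 2 biological replicates, both from strain OP186, which carries the mutation unc-119(ed3) on chromosome III and the transgene wgIs186, an insertion that makes UNC-39 with an eGFP tag. The tagged protein thus comes from a transgene in a mutant background, and no untagged strain, input or control library was analysed here. The labels name unc-39 as the antibody and elsewhere speak of eGFP-unc-39, and which antibody was used is not settled by them.

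A tRNA gene is transcribed by RNA polymerase III from a promoter inside the gene. Transcription factor TFIIIC binds the A box near the start of the gene and the B box, which encodes the T loop of the tRNA, and brings TFIIIB to the DNA just upstream of the gene. The polymerase stops at a run of T after the gene. UNC-39 is a homeodomain factor related to sine oculis that is known for roles in the differentiation of mesoderm and in the fate and migration of cells. Worm tRNA genes are scattered over all 6 nuclear chromosomes, often sit inside introns of protein-coding genes, and exist in many copies of the same sequence.

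The gene sequences of 5 of the 10 tRNA loci with the highest UNC-39 signal are given to show where the internal promoter lies. Each is written 5′ to 3′ along the tRNA gene, from the RefSeq copy of the WBcel235 assembly, and capitals mark the B box core GGTTCGA.
C04A11.t1: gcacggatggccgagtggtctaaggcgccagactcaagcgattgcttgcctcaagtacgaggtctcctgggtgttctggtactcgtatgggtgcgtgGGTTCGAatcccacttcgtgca
R04A9.t1: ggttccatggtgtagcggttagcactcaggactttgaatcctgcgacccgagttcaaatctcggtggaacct
C06G1.t1: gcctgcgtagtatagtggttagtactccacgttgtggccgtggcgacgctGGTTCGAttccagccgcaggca
C02B4.t2: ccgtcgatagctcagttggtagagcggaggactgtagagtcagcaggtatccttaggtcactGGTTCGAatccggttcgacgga
C04A2.t1: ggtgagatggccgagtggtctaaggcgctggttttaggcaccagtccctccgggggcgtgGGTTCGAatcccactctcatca
C04A11.t1 is a leucine tRNA gene at chrX:13665555-13665673 on the plus strand, R04A9.t1 a glutamine tRNA gene at chrX:410391-410462 (plus) and C06G1.t1 a histidine tRNA gene at chrX:16634830-16634901 (minus). C02B4.t2 is a tyrosine tRNA gene at chrX:12665228-12665311 (plus), and C04A2.t1 a leucine tRNA gene at chrII:6853204-6853285 (plus). R04A9.t1 has no GGTTCGA and so no capitals, although it was among the strongest loci.

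Many tRNA genes differ from one another only in what surrounds them. For a lysine tRNA gene with 25 identical copies, the 50 bases just upstream are shown for the 3 copies with a called UNC-39 summit and for 3 of the copies that had no summit in any list, because the gene itself is the same in all of them.
W03G11.t1: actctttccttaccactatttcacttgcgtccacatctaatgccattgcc
B0350.t1: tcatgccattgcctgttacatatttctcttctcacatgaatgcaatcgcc
W09G10.t2: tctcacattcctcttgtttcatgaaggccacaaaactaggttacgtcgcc
K01A11.t1: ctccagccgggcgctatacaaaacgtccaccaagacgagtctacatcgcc
F42H10.t1: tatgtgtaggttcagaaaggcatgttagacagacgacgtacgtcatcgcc
Y105C5A.t1: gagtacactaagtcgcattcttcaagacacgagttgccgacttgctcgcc
The first 3 are the called copies, at chrX:12106220-12106269 (minus strand), chrIV:5967110-5967159 (plus) and chrII:3519323-3519372 (minus). The last 3 are the copies with no summit, at chrIII:3426986-3427035 (minus), chrIII:8473423-8473472 (plus) and chrIV:15793365-15793414 (plus).

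Deposited lists of regions on build ce11 were read at these loci. The called list held 267 regions, those kept by the authors after filtering on reproducibility between replicates (irreproducible discovery rate, IDR), and the relaxed lists, which include background by design, held 9046 regions for the pooled replicates, 15880 for replicate 1 and 30000 for replicate 2. A locus was counted as having a summit where the summit of a region fell within it, and the signal is the authors' own score for a region against a control, used within a list only. At all 41 called loci the signal in the called list was that of the pooled list. Depth cannot be read from the lists, which give no counts of reads. As a background, the nuclear genome was laid out in 212439 windows of 472 bp, the length of a median locus. With a single group of 2 libraries there is no test between groups. Shares carry 95% exact intervals (Clopper-Pearson). These reflect counting error alone and treat neighbouring loci as independent.

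UNC-39 signal was found at a minority of tRNA loci, at a share far above that of ordinary genome windows in every list. In the called list 41 of 612 loci had a summit (6.7%, 95% exact interval 4.85 to 8.98), and 0.125% of genome windows did. In the pooled list 194 loci had a summit (31.7%, interval 28.0 to 35.5), against 4.2% of windows. Replicate 1 had a summit at 213 loci (34.8%, interval 31.0 to 38.7; windows 7.27%), and replicate 2 at 261 loci (42.6%, interval 38.7 to 46.7; windows 13.6%). The relaxed lists differ in length, so their shares are not comparable between the libraries. When each library was read through its 267 strongest regions alone, 26 loci (4.25%) had a summit in replicate 1 and 27 (4.41%) in replicate 2, against 0.125% and 0.126% of windows. Both libraries thus gave about the same share at equal list length. The 41 called loci took up 37 regions, of which 4 covered a pair of neighbouring loci.

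Annotated tRNA pseudogenes, which resemble tRNA genes in sequence, had far fewer summits. None of 209 nuclear tRNA pseudogene loci, extended in the same way, had a called summit, which leaves a share of up to 1.75% by the exact upper limit. In the pooled list 15 of them had a summit (7.18%, interval 4.07 to 11.6), 25 in replicate 1 (12%) and 31 in replicate 2 (14.8%). These shares lay nearer to those of the genome windows than to those of the tRNA genes. The summits at pseudogenes ranked at a median of 50.2% down the pooled list, whereas those at tRNA genes ranked at a median of 13%. The medians were 69% and 14.2% in replicate 1, and 33.7% and 17% in replicate 2. Among the 267 strongest regions, 2 pseudogene loci had a summit in replicate 2 (0.957%, interval 0.116 to 3.41, windows 0.126%) and 0 in replicate 1. Of the 209 pseudogene loci 29 lie on X, where 276 of the 612 tRNA loci lie. The sequence GGTTCGA was in 141 of the 209 pseudogenes (67.5%), and its presence went with a summit in some lists and not in others. In replicate 1 a summit was present at 24 of those 141 (17.0%, interval 11.2 to 24.3) and at 1 of the 68 without it (1.47%, interval 0.0372 to 7.92). Replicate 2 gave 16.3% and 11.8%, and the pooled list the other order, 6.38% and 8.82%. The pseudogene loci were more unique in sequence than the tRNA loci, with a median of 98.2% of their 31-base stretches found once in the genome.

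**Figure D1:**
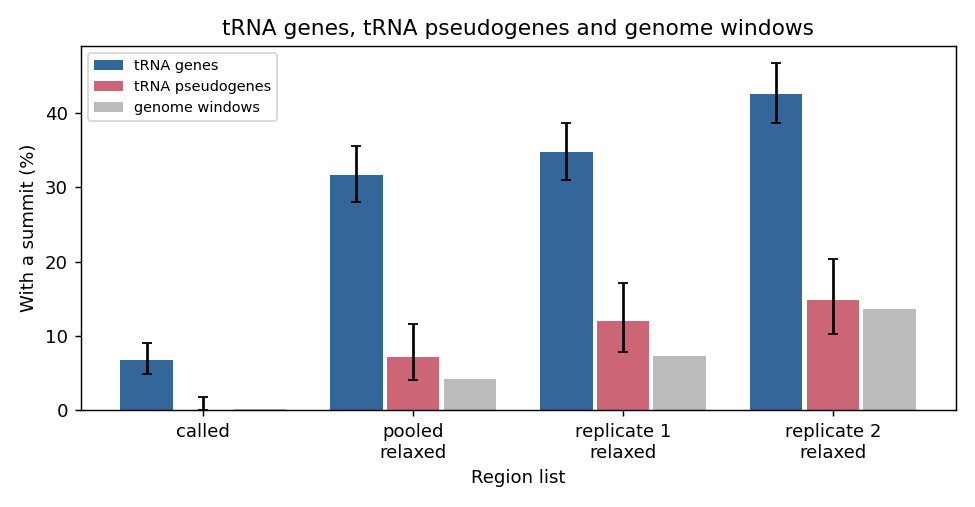
Share of loci with a summit (y axis, percent) in the called, pooled and replicate lists for tRNA genes, tRNA pseudogenes and genome windows of a median locus length; bars are shares and error bars, drawn for both gene classes, 95% exact intervals. In each list the tRNA genes stood above both other classes, with 6.7% of tRNA genes and 0 pseudogenes in the called list.

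Where a tRNA locus did have a relaxed summit, it tended to be high in the list. Of the 194 loci in the pooled list 84 (43.3%) fell in the strongest 10% of its regions, as did 92 of 213 (43.2%) in replicate 1 and 111 of 261 (42.5%) in replicate 2. Within the called list the tRNA loci were of moderate signal. Their signals had a lowest value of 45.4, a median of 51.5 and a highest of 112, where the whole list ran from 44.4 over a median of 54.6 to 173. Only 17 of the 41 were among the 133 strongest called regions, and 1 was in the strongest 10%.

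The strongest tRNA locus was C04A11.t1, a leucine tRNA gene of unique sequence that lies between protein-coding genes. Its region had a called signal of 112, a signal of 61.2 and rank 9 in replicate 1, and a signal of 46.6 and rank 15 in replicate 2. Its summit lay 13 bp into the gene, and the nearest protein-coding transcription start site (TSS) was 966 bp away. C28G1.t1, a glutamate tRNA gene at chrX:8836113-8836184 that overlaps an exon or the edge of a protein-coding gene, followed with a called signal of 80.8. It ranked 17 in replicate 1 (signal 56.9) and 202 in replicate 2 (signal 24.0). Its summit was 1 bp upstream of the tRNA gene and the nearest protein-coding TSS was 97 bp away, so signal from that promoter and from the tRNA gene cannot be told apart. F41D9.t3, an asparagine tRNA gene in an intron of sulp-3, had a called signal of 73.1, with rank 126 in replicate 1 (signal 32.4) and rank 28 in replicate 2 (signal 42.6).

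The remaining 7 of the 10 strongest loci had called signals between 57.8 and 68.5 and lay on chromosomes I, II and X. R04A9.t1 had 68.5, with rank 69 in replicate 1 and rank 235 in replicate 2. C37A2.t1, a cysteine tRNA gene in an intron of the cyclin E gene cye-1 on chromosome I, had 67.3, with ranks of 61 and 184. In the intron of the nuclear receptor gene nhr-17, C02B4.t2 had 67.0, with ranks of 163 and 52. The histidine gene C06G1.t1 had 67.1 (ranks 48 and 272) and C04A2.t1 had 64.7 (ranks 108 and 84). The last of the 10 were the glutamate gene T26C11.t1 with 61.6 (ranks 89 and 198) and the arginine gene F35H8.t1 with 57.8 (ranks 252 and 94). All 10 were isolated from other tRNA genes and among the 267 strongest regions of replicate 1, and C06G1.t1 alone of them was not among the 267 strongest of replicate 2. On the other chromosomes the strongest loci were the arginine genes F56F3.t1 on III (52.1) and M57.t1 on IV, in an intron of the axon guidance gene unc-33 (49.1), and the isoleucine gene F57F5.t1 on V (57.3).

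The share of called loci differed between chromosomes by counts that were small outside X. On X, which holds 45.1% of the loci on 17.7% of the nuclear length, 24 of 276 loci were called (8.70%, interval 5.65 to 12.7). On the autosomes 17 of 336 were called (5.06%, interval 2.97 to 7.98), and the difference of 3.64 percentage points had an interval of -0.378 to 7.98. Chromosomes II and III, with 6 of 57 (10.5%) and 7 of 64 (10.9%), had shares as high as that of X. IV had 2 of 71 (2.82%), V had 1 of 78 (1.28%) and I had 1 of 66 (1.52%). Genome windows with a called summit made up 0.184% on X and 0.113% on the autosomes, a difference of the same direction. In the relaxed lists X and the autosomes were close, at 33.3% and 30.4% in the pooled list, 37.7% and 32.4% in replicate 1 and 42.0% and 43.2% in replicate 2. The X loci with a summit in replicate 2 ranked higher in its list, at a median of 10.5% against 26.1%. The gap was smaller in replicate 1 (12.2% against 16.7%) and in the pooled list (10.8% against 16.4%). Median GC content of the loci was 37.8% on X and 41.5% on the autosomes, and its part in these differences was not tested.

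**Figure D2:**
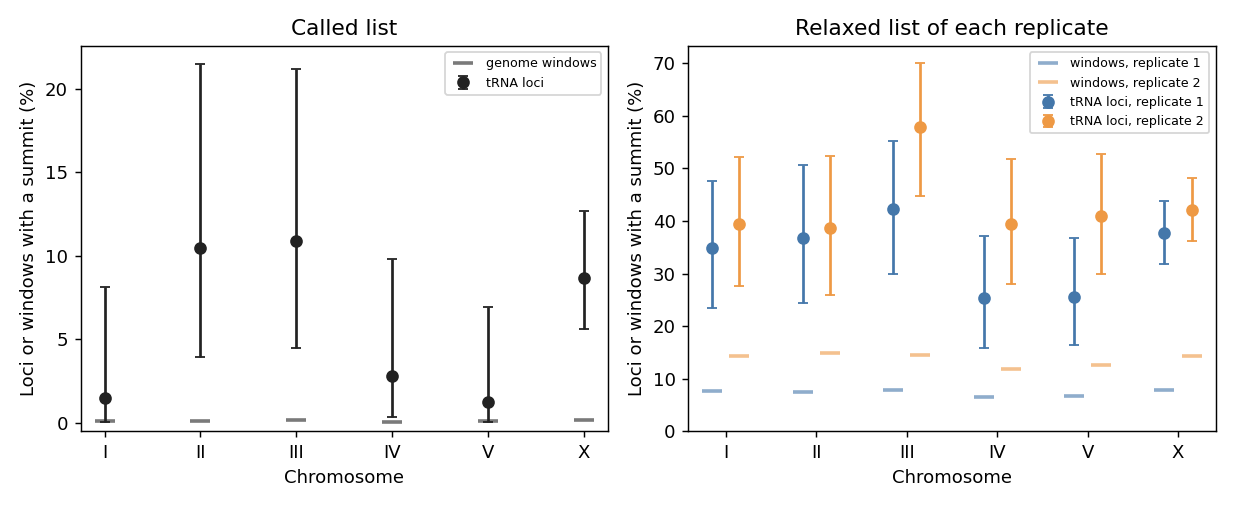
Share of tRNA loci with a summit (y axis, percent) by chromosome (x axis) in the called list and in the relaxed lists of the 2 replicates; points are shares, error bars 95% exact intervals and short lines the share of genome windows. Called shares run from 1.28% on V to 10.9% on III, and the intervals of the autosomes and X overlap.

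Called loci were most frequent in the left segment of X and, among the autosomes, in the middle segments. Each chromosome was cut into 3 equal lengths, a division that was chosen after other results of these data were seen. In the left segment of X 12 of 51 loci were called (23.5%, interval 12.8 to 37.5), in the middle 5 of 107 (4.67%, interval 1.53 to 10.6) and on the right 7 of 118 (5.93%, interval 2.42 to 11.8). The 12 loci stand on 9 regions, since 3 regions each covered 2 of them. They run from R04A9.t1 at chrX:410391-410462 to the proline genes F46G11.t1 and F46G11.t2. The left segment was also the highest in the pooled list (52.9%, with 29.0% in the middle and 28.8% on the right), in replicate 1 (54.9%, 35.5% and 32.2%) and in replicate 2 (58.8%, 35.5% and 40.7%). At equal list length, with 267 regions per library, the left segment had 7 loci in replicate 1 and 10 in replicate 2, against 5 and 2 in the middle and 3 and 6 on the right. Of the windows, 0.168% in the left, 0.2% in the middle and 0.184% in the right segment of X had a called summit, so the left was not the highest there. On the autosomes the middle segments stood highest, with 12 of 110 loci called (10.9%, interval 5.77 to 18.3) on 11 regions, against 4 of 80 on the left (5.0%) and 1 of 146 on the right (0.685%, interval 0.0173 to 3.76). Their windows were also highest in the middle (0.141%, against 0.0961% on the left and 0.101% on the right). The relaxed lists of the replicates did not share an order on the autosomes. From left to right the shares were 27.5%, 40.9% and 28.8% in replicate 1, and 46.2%, 41.8% and 42.5% in replicate 2, where the middle was lowest. In the pooled list they were 28.7%, 36.4% and 26.7%.

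Isolated loci, with no other tRNA gene within 1000 bp, had called summits somewhat more often than clustered ones. There were 30 called among 376 isolated loci (7.98%, interval 5.45 to 11.2) and 11 among 236 clustered loci (4.66%, interval 2.35 to 8.19), a difference of 3.32 percentage points with an interval of -0.881 to 7.10, which includes 0. With clusters defined within 5000 bp the difference was 4.44 points, with an interval of 0.441 to 8.72. With genes of unique sequence it was -2.98, with an interval of -14.9 to 4.44. The 11 clustered loci stood on 7 regions. Replicate 1 gave 37.5% of isolated and 30.5% of clustered loci, and replicate 2 gave 44.1% and 40.3%. On X the shares were 12.1% of 141 isolated and 5.19% of 135 clustered loci, and on the autosomes 5.53% of 235 and 3.96% of 101. The strongest clustered locus was the proline gene C16B8.t2 with a signal of 56.1, whose region it shares with its neighbour C16B8.t3, 97 bp away.

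The position of a tRNA gene within a protein-coding gene made little difference to how often it had a summit in the called and relaxed lists. Inside an intron of a host gene 17 of 283 loci were called (6.01%, interval 3.54 to 9.44), and between protein-coding genes 23 of 319 (7.21%, interval 4.63 to 10.6). The difference of -1.20 percentage points (intron minus intergenic) had an interval of -5.25 to 2.94. Genome windows with a called summit were rarer in host introns (0.0922%) than in intergenic sequence (0.21%). For tRNA genes on the same strand as their host 8 of 160 were called (5.0%), and on the opposite strand 9 of 123 (7.32%). In the replicate libraries intronic loci had summits at 35.0% and 43.8%, and intergenic loci at 34.8% and 42.3%. Summits at intergenic loci ranked higher in the relaxed lists, at a median of 9.61% down the pooled list against 18% at intronic loci. The medians were 7.69% and 17.7% in replicate 1, 14.1% and 20.3% in replicate 2, and close in the called list (61.4% and 61.8%). The nearest protein-coding TSS lay a median of 1195 bp from called and 1465 bp from uncalled loci, and it was within 1000 bp at 15 of 41 (36.6%) and at 216 of 571 (37.8%). A TSS within 200 bp was present at 3 called loci, C28G1.t1, W09G10.t2 and T14B4.t1, and at 31 uncalled ones. The 35 loci with such a TSS, or a snoRNA or snRNA gene, within 200 bp had a pooled summit more often than the other 577 (51.4%, interval 34.0 to 68.6, and 30.5%, interval 26.8 to 34.4). In the called list these shares were 8.57% and 6.59%.

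Called summits were spread over nearly all amino acid families. RefSeq gives an isotype for 607 of the 612 genes, and 18 of the 21 isotypes had a called locus. Lysine had 5 of 46 (10.9%), isoleucine 4 of 29 (13.8%), leucine 4 of 39 (10.3%), proline 4 of 42 (9.52%), glycine 4 of 55 (7.27%) and methionine 3 of 20 (15%, interval 3.21 to 37.9). The strongest glycine, lysine and methionine loci were M02F4.t1 (signal 54.9), W03G11.t1 (53.7) and C02F12.t1 (51.4). Alanine had 0 of 34, which allows a share of up to 10.3%, and aspartate 0 of 27, which allows up to 12.8%. Both families still had relaxed summits, 14 alanine (41.2%) and 8 aspartate (29.6%) loci in the pooled list. Over the 20 isotypes with 10 or more loci, the pooled share ran from 14.7% to 45% with a median of 29.1%. With at most 5 called loci per isotype, the intervals of the isotypes overlap widely.

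Genes of the same sequence often differed in whether they had a summit. The 612 genes make up 200 distinct sequences, and 469 genes belong to 57 groups of identical copies, the largest of 29. A called member was present in 24 groups, and no group was called in full, where 6.7% of all loci were called. At that share a large group called in full would be rare in any case, so this says little about identical copies. In the 20 groups of 10 or more copies (317 genes) the share of members with a pooled summit ran from 20% to 60%, where it was 31.7% over all loci. The glycine group of 29 genes, 11 of them on X, had 3 called members and 13 with a pooled summit. The 3 called members were all on X, with signals of 46.3, 47.1 and 54.9. The lysine group of 25 had 3 called members, W03G11.t1 (53.7), B0350.t1 (48.8) and W09G10.t2 (45.4), and 6 with a pooled summit. A glutamate group of 15 had 2, C28G1.t1 (80.8) and T26C11.t1 (61.6), and 8 with a pooled summit. The 6 upstream stretches shown for the lysine group differ from one another, while the gene sequence is the same in all 25 copies.

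Copy number itself went with the called share only weakly, but genes of unique sequence had the lowest share in each relaxed list. Genes of unique sequence were called at 7 of 143 loci (4.9%), those in groups of 2 to 5 at 5 of 82 (6.10%), of 6 to 15 at 17 of 231 (7.36%) and of 16 or more at 12 of 156 (7.69%). In the same order, the pooled list gave 24.5%, 31.7%, 35.5% and 32.7%. Replicate 1 gave 27.3%, 35.4%, 38.5% and 35.9%, and replicate 2 gave 30.8%, 51.2%, 45.5% and 44.9%. The exact intervals of unique genes and groups of 2 to 5 were apart in replicate 2. All other intervals of unique genes overlapped those of the groups. The cause of the lower share was not tested. The sources used here do not say how reads that map to several copies were treated. Within the gene body the median share of 31-base stretches found once in the genome was 0 for called and uncalled genes alike, and over the whole locus it was 87.4% in both.

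**Figure D3:**
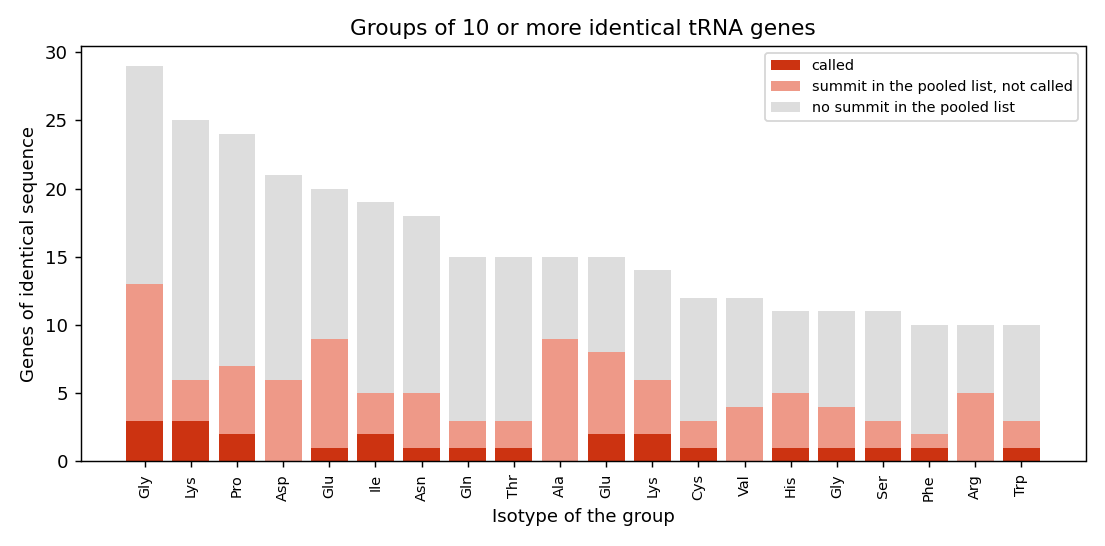
Number of genes (y axis) in each group of 10 or more identical tRNA genes, named by isotype (x axis), that were called, had a pooled summit without being called, or had no pooled summit. No group was called in full, and 16 of the 20 groups had at least 1 called member, where 6.7% of all loci were called.

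Called summits sat mostly on the gene and just upstream of it, and relaxed summits were spread more widely. Counted along the tRNA gene from its first base, called summits had a median position of 13 bp, with quartiles at -19 and 42 bp and a range of -198 to 160 bp. Inside the gene lay 21 of 41 (51.2%, interval 35.1 to 67.1), upstream 17 (41.5%) and downstream 3 (7.32%), while the gene makes up 15.3% of a median locus. The 41 positions come from 37 summits, since 4 were counted once for each of 2 neighbouring genes. The summit at -198 bp of F46G11.t1 lies 8 bp into F46G11.t2, and the one at -104 bp of C16B8.t3 lies 65 bp into C16B8.t2. Shared summits also numbered 17 in the pooled list, 17 in replicate 1 and 19 in replicate 2. In the pooled list the median was 30 bp, with 80 of 194 summits inside the gene (41.2%) and 50 downstream (25.8%). Replicate 1 had a median of 20 bp with 65 of 213 inside (30.5%) and 57 downstream (26.8%). Replicate 2 had a median of 30 bp, with more summits downstream (82 of 261, 31.4%) than inside the gene (77, 29.5%). The B box core starts at a median of 51 bp into the gene, so the median summit lay upstream of it in each list. Summits are the centres of regions far wider than the gene, and their position is no finer than the scatter between the libraries, where the 2 summits of a locus lay a median of 59 bp apart.

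**Figure D4:**
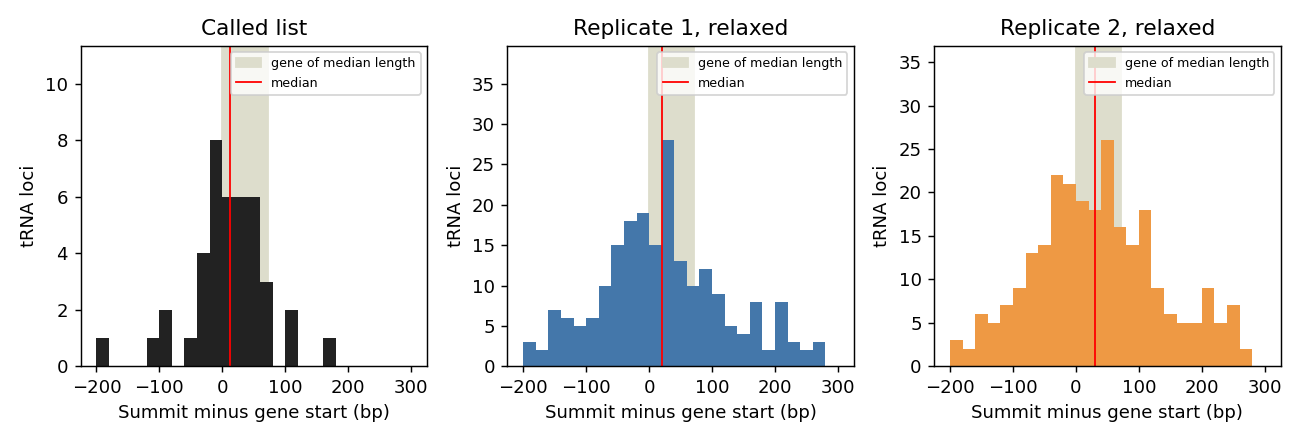
Position of summits relative to the first base of the tRNA gene (x axis, bp, positive into the gene) against the number of loci (y axis) in the called list and the relaxed lists of replicate 1 and replicate 2; the shaded band is a gene of median length and the line the median. Called summits centre on the gene start with a median of 13 bp, and those of the libraries are broader with medians of 20 and 30 bp.

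The letters of the internal promoter separated called from uncalled loci little. GGTTCGA, searched on the sense strand of the gene, was in 29 of 41 called genes (70.7%, interval 54.5 to 83.9) and in 366 of 571 uncalled ones (64.1%, interval 60.0 to 68.0). Of 1392672 genome windows of 72 bp, 0.502% held it on either strand. The shorter GTTCGA, which lies within it, was in 34 called genes (82.9%, interval 67.9 to 92.8) and in 71.5% of uncalled ones, against 2.61% of windows. An A box core, AGNGG or AGNNGG in the first 30 bases, was in 80.5% of called and 80.6% of uncalled genes. A run of TTTT within 25 bp after the gene was present at all 41 called loci and at 563 of 571 others. Of the 8 loci without it, 2 had a summit in replicate 1 and 0 in the pooled list, which allows a share of up to 36.9%. Of 29 genes annotated with 2 exons, 3 were called (10.3%), C04A11.t1, C02B4.t2 and F57F5.t1, against 38 of 583 with 1 exon (6.52%). Median GC content of the locus was 41.6% at called loci, 41.1% at loci with a pooled summit that were not called and 38.6% at loci with no summit.

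The libraries gave overlapping but far from equal sets of loci. Both had a relaxed summit at 159 loci, replicate 1 alone at 54, replicate 2 alone at 102 and neither at 297 (48.5%). The shared loci were 74.6% of those in replicate 1 and 60.9% of those in replicate 2, or 50.5% of those in either (interval 44.8 to 56.1). Among the 267 strongest regions of each library, 12 loci were in both, 14 in replicate 1 alone and 15 in replicate 2 alone. The overlap of the libraries over all regions was not measured. These values are therefore not shown to be particular to tRNA loci. Signals in the libraries had a Spearman correlation of 0.528 across the 159 shared loci and of 0.194 across the 118 of these that were not called. The called loci come from a list that the authors filtered on reproducibility, and their called signals are those of the pooled replicates. The first value thus includes a selected set. The second leaves that set out, and with it the loci that ranked highest in both libraries, so it covers a narrower range of signal. Neither value is an unselected measure of agreement.

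The called loci ranked high in both libraries, but not always in the same one. Their median rank was 1.48% down the list of replicate 1 (range 0.0567 to 23.0) and 0.783% down that of replicate 2 (range 0.05 to 7.87). The lists differ in length, so these percents are not comparable between the libraries. Of the 41, 12 were among the 267 strongest in both, 11 in replicate 1 alone, 13 in replicate 2 alone and 5 in neither. At the called loci the summits of the libraries were a median of 34 bp apart and at most 157 bp. The widest gap in rank was at B0523.t1, a tryptophan tRNA gene in an intron of fli-1 on chromosome III, which ranked 3659 in replicate 1 (signal 14.7) and 48 in replicate 2 (signal 35.7) and was picked out after its values were seen. By the sum of ranks taken as percent of each list, the best loci that were not called were C17D12.t3, a leucine gene on chromosome I (ranks 429 and 463), B0244.t2, a leucine gene on III (322 and 777), and C53C7.t2, a serine gene on X (455 and 607). At C17D12.t3 the summits lay on opposite sides of the gene, at 193 bp from its start in replicate 1 and at -35 bp in replicate 2. In the order named, these uncalled loci had pooled signals of 38.6, 44.0 and 39.9, and the lowest signal in the called list was 44.4. Called loci named here had the same rank in the called list as in the pooled list. At these loci the called list thus follows the order of the pooled list. A lower pooled signal and absence from the called list are therefore not separate results.

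**Figure D5:**
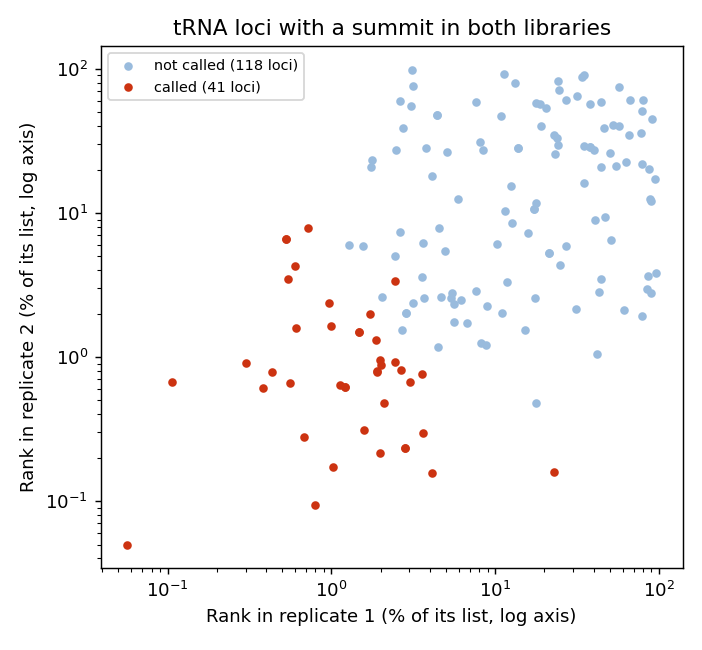
Rank of each tRNA locus with a summit in both relaxed lists, in replicate 1 (x axis) and replicate 2 (y axis), as percent of the list on log axes, with called loci marked. Called loci fill the corner of high ranks, down to 23.0% in replicate 1 and 7.87% in replicate 2, where the lists differ in length.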

How the data were processed

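Per the labels, ChIP-seq libraries of 2 biological replicates form a single group. The authors deposited lists of regions on ce10 and ce11, and the ce11 lists were used. The signal is a score per region against a control, as the authors deposited it. The aligner, the caller, their versions and the treatment of multiply mapped reads are not given in the sources. Positions came from Ensembl release 115 and sequence and isotypes from RefSeq, both on WBcel235, and 0 regions ran past a chromosome end. A locus took the strongest region whose summit fell within 200 bp of the gene. Clustered means another tRNA gene within 1000 bp. Loci, classes and lists were chosen with earlier results of these data known. Named genes were the 10 strongest, the strongest per chromosome, class and isotype with several called loci, the 3 identical groups with most called members, and the 3 best uncalled loci. Alternatives changed flank, overlap rule, list, library, cluster distance and gene set. Counting was checked on simulated regions. Python 3.11.15, NumPy 2.4.6, pandas 2.3.3, SciPy 1.17.1 and Matplotlib 3.10.9 were used.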

Additional observations from a re-analysis of the deposited data

How the results depend on the processing

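Of 63 recomputed values, 51 kept their direction or stayed within the spread of the main value, 8 moved and 4 reversed. The share of called loci (6.70%) was 3.43% with no flank, 2.78% with the stronger part of the called list and 14.2% with the 1000 strongest pooled regions, and 4.25% to 4.41% with 1 library alone. The X minus autosome difference kept its sign in all alternatives, from 0.612 percentage points with genes of unique sequence to 5.12. Its interval excluded 0 with the stronger part of the called list (2.86, interval 0.178 to 6.07) and with replicate 2 alone (3.84, interval 0.527 to 7.61), and included 0 otherwise. Isolated minus clustered (3.32) became -2.98 with genes of unique sequence (interval -14.9 to 4.44). Its interval excluded 0 with a flank of 100 bp (4.17), replicate 2 alone (3.73), the 1000 strongest pooled regions (5.9) and clusters within 5000 bp (4.44). Intron minus intergenic (-1.20) became 0.0853 with no flank and ran from -0.815 to 0.165 with 1 library alone. It was -3.73 with genes of unique sequence (interval -12.1 to 4.58) and -4.95 with the 1000 strongest pooled regions (interval -10.5 to 0.679). The B box difference (6.63) became -0.21 with genes of unique sequence (interval -33.3 to 28.1). Only 7 of the 143 genes of unique sequence were called, and the intervals of all 4 reversed values include the main value. The cause was not tested in these cases. The median summit position of 13 bp was 20 to 30 bp with 1 library alone. The share of loci found in both libraries (50.5%) was 29.3% in the 267 strongest regions and 43.1% in the 1000 strongest. No paired analysis was possible because there is only 1 group. With no read counts, depth is unknown, and a locus without a summit is not shown to lack UNC-39.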

Other observations

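Some loci ranked high in 1 library and had no summit in the other. The examples were chosen with their values known. F09B9.t2, an arginine tRNA gene in an intron of unc-115 on X, ranked 110 of 15880 in replicate 1 (signal 34.0) and had no summit in replicate 2, and its pooled signal was 31.1. B0285.t1, a leucine tRNA gene of unique sequence in an intron of mnp-1 on III, ranked 240 of 30000 in replicate 2 (signal 22.9) and had none in replicate 1, with a pooled signal of 28.5. Both are outside the called list.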
